A study of Mus musculus with 38 samples.

Results

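Of the 55298 genes counted in the bulk RNA-seq of the Emx1-Cre cortex, 10 are described here: Bmp6, Slc47a1, Slc26a7, Myoc, Col1a2, Foxc1, Slc6a13, Slc6a20a, Dcn and Lum. They are known from meningeal fibroblasts and from the transporters of brain barriers, and they were selected because they were lower in Trim28-KO cortex in that bulk contrast. Their bulk values are therefore given as a description with no test. The tests of the members below rest on libraries other than those bulk libraries. The nuclei among them came from 4 of the same animals, so their tests are not fully independent of the selection. Genes of the fixed lists were tested in the same bulk libraries. These lists were chosen with earlier results of these data known, so their bulk tests are not independent of the selection. The same genes, among 27998 in the nuclei tables, were then read in nuclei of 4 of the same animals, to set a smaller number of nuclei apart from a lower level in each nucleus.

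The study deleted Trim28, a corepressor that silences transposable elements, in the mouse brain and in neural progenitor cells (NPCs). In the Emx1-Cre cross, fathers carrying Emx1-Cre (+/-), Trim28-fl (+/-) and gtRosa (+/-) were mated to Trim28-fl (+/+) mothers. The Trim28-KO animals were Emx1-Cre (+/-), Trim28-fl (+/+), with both alleles excised, and the controls were Emx1-Cre (+/-), Trim28-fl (+/-), so Cre was active in both groups and the controls had lost 1 allele. One legend of the study calls the controls Cre-negative instead. Emx1 drives Cre in the progenitors of the dorsal forebrain, which give rise to cortical excitatory neurons and much of the cortical glia, while meningeal fibroblasts come from other lineages. Bulk RNA came from cortex tissue at 3 months of age, of the Trim28-KO animals 60, 73 and 76 and the control animals 64, 65 and 77. Nuclei of animals 60, 73, 64 and 65 were spun through sucrose, sorted and sequenced with the 10x 3′ assay, which counts molecules as unique molecular identifiers (UMIs).

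The meninges are the sheets of connective tissue around the brain. Their fibroblasts lay down fibrillar collagen and small leucine-rich proteoglycans, secrete BMPs and retinoic acid that act on the developing cortex, and depend on the transcription factor Foxc1 in the embryo. Fibroblasts and arachnoid barrier cells also carry solute transporters that move amino acids, organic ions and drugs between the cerebrospinal fluid, the blood and the brain.

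The Emx1-Cre bulk libraries held between 16748967 and 18592289 gene counts in Trim28-KO and between 17206220 and 25345083 in control. Trim28 averaged 20.4 ± 1.28 CPM (gene counts scaled to library size, TMM-normalised; SD, n = 3) in control and 7.83 ± 1.52 CPM (n = 3) in Trim28-KO, a log2 fold change of -1.39 (SE 0.15, edgeR adjusted p = 0.000378). The library of animal 76 stood apart with a normalisation factor of 0.754, against 1.03 to 1.09 in the other 5. Without it the members' log2 fold changes lay between -3.17 for Myoc and -0.61 for Foxc1, and that of Slc26a7 moved from -2.32 to -3.15. In the nuclei Trim28 gave 262 and 252 UMIs in Trim28-KO (animals 60 and 73) and 277 and 246 in control (animals 64 and 65). The log2 fold change was -0.21 (edgeR adjusted p = 0.439), so Trim28 does not check the labels of the nuclei. Whether the 3′ tags lie outside the excised part was not tested. Fbxw19 had the largest rise in bulk among the genes called there that were also tested over all nuclei, and was picked here after its values were seen. It gave 545 and 320 UMIs in the nuclei labelled Trim28-KO and 0 and 1 in those labelled control.

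In the bulk cortex every member was lower in all 3 Trim28-KO libraries than in all 3 control libraries. The lowest levels relative to control were those of Myoc, Slc47a1 and Slc26a7, and the smallest differences those of Dcn and Foxc1. The same separation of all libraries, lower in Trim28-KO, was found for 7.1% of the 16271 genes tested (1155 genes), and nothing is read from the members' count because this contrast selected them. The rule used for the whole table asks for an edgeR adjusted p below 0.05 together with a change beyond 0.5 on the log2 scale. By it 1.33% of the genes tested were called, and 0.467% of the genes tested were called lower. Of the 10 members 4 (Slc47a1, Slc26a7, Myoc and Col1a2) were past it, and with DESeq2 7, Slc6a13, Slc6a20a and Dcn in addition. This contrast selected the members, so these counts are no test of them and are not set against the 0.467%. Across members the median log2 fold change was -1.01, against 0.0071 over all genes. In bulk tissue, fewer cells of a type and less RNA per cell cannot be told apart.

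Among the matrix and secreted members, Myoc, which encodes the glycoprotein myocilin, was at 0.398, 0.724 and 0.396 CPM in Trim28-KO animals 60, 73 and 76 and at 5.63, 5.11 and 4.76 CPM in control animals 64, 65 and 77. The log2 fold change was -3.29 (SE 0.25), and the groups lay far apart with little spread inside either. Col1a2, a chain of type I collagen, was at 1.93, 3.26 and 3.41 CPM in Trim28-KO and at 6.35, 6.58 and 5.16 CPM in control (log2 fold change -1.08, SE 0.21). Dcn, the proteoglycan decorin that binds collagen fibrils, was at 4.77, 8.01 and 4.91 CPM against 11.4, 8.92 and 9.07 CPM. Animal 73 came close to the lowest control for Dcn, and the log2 fold change was -0.72 (SE 0.20). Lum, the related proteoglycan lumican, was at 0.966, 2.22 and 1.90 CPM against 3.23, 3.05 and 3.38 CPM (log2 fold change -0.93, SE 0.26). Dcn and Lum lie next to each other on chromosome 10, at 97479609 to 97518143 and 97565128 to 97572703 on the forward strand of GRCm38.p6, with 46985 bases between them.

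Bmp6, a BMP ligand, was at 0.909, 1.71 and 1.43 CPM in the Trim28-KO libraries and at 3.19, 2.34 and 2.40 CPM in control (log2 fold change -0.98, SE 0.26). It overlaps 2 genes on the opposite strand, and with the gene counts of TEtranscripts in place of those of featureCounts the log2 fold change was -1.28. Foxc1, the forkhead transcription factor needed for the meninges to form, was at 3.30, 3.72 and 2.69 CPM against 5.30, 5.71 and 5.16 CPM. Its log2 fold change of -0.71 (SE 0.17) was the smallest of the 10, and its groups lay apart with a narrow spread in each.

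Among the transporters, Slc47a1, an antiporter that expels organic cations and drugs, was at 0.0568, 0.413 and 0.317 CPM in Trim28-KO and at 3.01, 2.18 and 1.24 CPM in control (log2 fold change -3.02, SE 0.50). Slc26a7, an anion exchanger, was at 0.0568, 0.362 and 0.872 CPM against 2.18, 1.52 and 2.13 CPM (log2 fold change -2.32, SE 0.47). These are the 2 members whose Trim28-KO libraries differed most among themselves, and animal 60 held 1 read of each. Slc6a13, which takes up GABA, taurine and betaine, was at 1.65, 2.64 and 2.22 CPM against 5.59, 4.24 and 3.47 CPM (log2 fold change -1.04, SE 0.24). Slc6a20a, a carrier of proline and other imino acids, was at 2.90, 5.58 and 4.36 CPM against 9.76, 6.85 and 7.69 CPM (log2 fold change -0.92, SE 0.22). Slc6a20a overlaps 1 gene on its own strand and 4 on the other, and Col1a2 overlaps 1 on its own, so some reads of these could belong to a neighbour. For 8 of the members the lowest Trim28-KO value was that of animal 60.

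**Figure D1:**
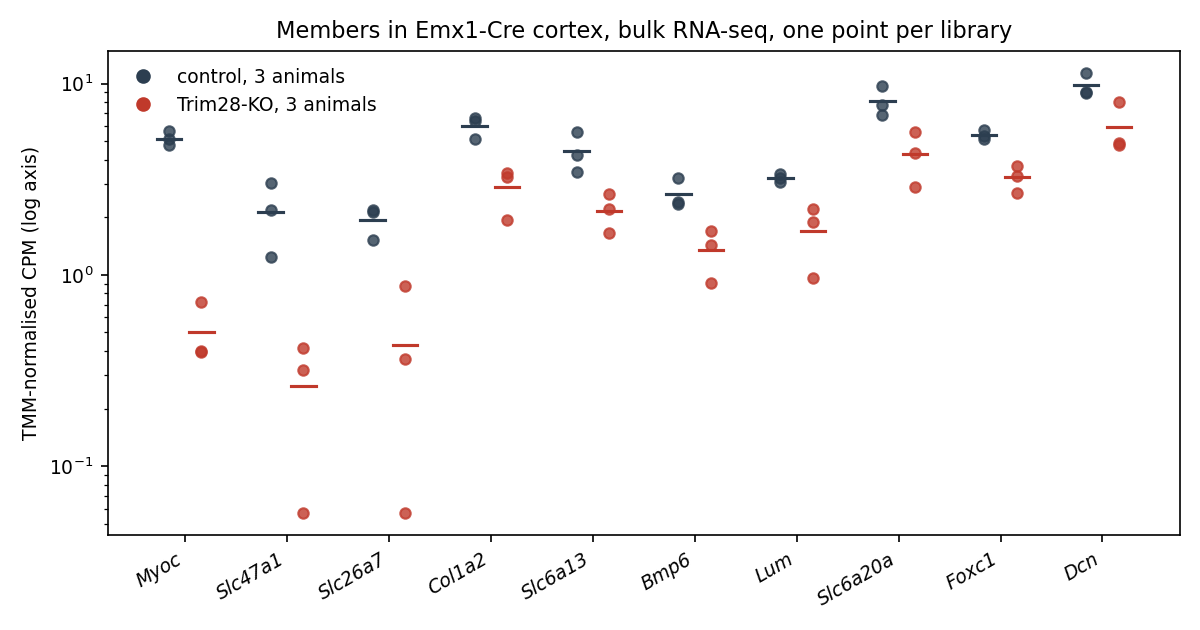
TMM-normalised CPM of each member (log axis) in the bulk RNA-seq of the Emx1-Cre cortex, with 1 point per animal (dark, 3 controls; red, 3 Trim28-KO) and a bar at each group mean. For every member the red points lie below the dark ones, with the widest gap for Myoc (0.396 to 0.724 against 4.76 to 5.63 CPM).

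Set on a scale per length, the control level ran from 2.49 CPM per kb of exon for Myoc over 1.98 for Slc6a20a, 1.68 for Dcn, 1.53 for Slc6a13 and 1.31 for Lum to 0.92 for Foxc1, 0.68 for Bmp6, 0.63 for Slc47a1, 0.49 for Col1a2 and 0.36 for Slc26a7. Over the 3 control libraries the ranges of neighbours in this order overlapped for 6 of the 9 pairs, and only Lum over Foxc1, Foxc1 over Bmp6 and Col1a2 over Slc26a7 lay apart. Myoc, the member with the highest control level, and Slc47a1, among the lowest, were the 2 with bulk log2 fold changes at or below -3.02.

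The 250 bases before the start of the member with the largest bulk difference, Myoc (GRCm38.p6, chr1:162638900-162639149, forward strand), and of the one with the smallest, Foxc1 (chr13:31806396-31806645, forward strand), are shown to let their promoters be compared (RefSeq). Capitals mark a TATA box (TATAAA) in Myoc and the GC-rich SMAD element (GGCGCC) in Foxc1.
Myoc: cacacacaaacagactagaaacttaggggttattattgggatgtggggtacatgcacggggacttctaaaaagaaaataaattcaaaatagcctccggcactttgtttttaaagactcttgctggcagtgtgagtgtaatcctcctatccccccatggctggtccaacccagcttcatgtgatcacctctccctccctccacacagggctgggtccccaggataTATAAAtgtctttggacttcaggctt
Foxc1: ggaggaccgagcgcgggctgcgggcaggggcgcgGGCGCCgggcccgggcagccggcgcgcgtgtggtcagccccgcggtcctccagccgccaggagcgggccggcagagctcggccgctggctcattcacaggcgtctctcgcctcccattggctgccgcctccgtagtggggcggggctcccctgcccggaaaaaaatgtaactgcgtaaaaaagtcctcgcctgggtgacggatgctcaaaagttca
The TATAAA of Myoc lies 26 to 21 bases before its start, whereas the Foxc1 window has no such match and is rich in G and C. RefSeq promoters were at hand for 6 of the 10 members, Myoc, Foxc1, Bmp6, Col1a2, Slc6a13 and Slc6a20a. TATAAA was in 1 of these 6 and in 13.6% of all 32851 promoters of the table on either strand. GGCGCC, which reads the same on both strands, was in Foxc1 and Slc6a20a and in 11.9% of all promoters. The forkhead motif GTAAACA, searched on both strands like TATAAA, was in none of the 6 and in 3.65% of all promoters.

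Other genes of the same tissue were read from fixed lists, in the same bulk libraries that had selected the members. Of 25 further meningeal fibroblast markers 23 were tested in the bulk cortex, 19 had a log2 fold change below 0, the median was -0.83, and 2 were called, both lower in Trim28-KO. These were Aldh1a2, which makes retinoic acid (2.90 CPM in control and 1.20 in Trim28-KO, log2 fold change -1.28, edgeR adjusted p = 0.047), and Islr, a secreted leucine-rich repeat protein (7.13 and 3.15 CPM, -1.18, adjusted p = 0.00978). Summed over the list, the markers were at 60.6 to 83.0 CPM in Trim28-KO and at 94.0 to 113 CPM in control, a ratio of 0.744. The 10 members summed to 16.9 to 28.6 CPM and 44.4 to 55.6 CPM, a ratio of 0.464. The ratio of the members' sum to that of the other markers was 0.280, 0.352 and 0.271 in the Trim28-KO libraries and 0.495, 0.485 and 0.473 in control, a difference to be read as a description because the members were selected on these libraries.

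Of 9 other meningeal and barrier transporters tested, 1 was called. This was Slc22a6, the organic anion transporter OAT1 (3.58 CPM in control and 1.14 in Trim28-KO, log2 fold change -1.59, edgeR adjusted p = 0.0208), and the median of the list was -0.29. Among 13 fibrillar collagens and leucine-rich proteoglycans 11 were below 0 with a median of -0.60. Of these 0 were called by edgeR, 7 had an unadjusted p under 0.05, and DESeq2 called 2. Prelp, Ogn, Fmod and Bgn, proteoglycans picked here after their values were seen, had each Trim28-KO library below each control, with edgeR adjusted p between 0.0531 and 0.146. Of 24 BMP signalling genes 0 were called by edgeR or DESeq2 (5 with an unadjusted p under 0.05 in edgeR and 2 in DESeq2), and the median was -0.072. Of all 16271 genes tested in the bulk cortex, 1488 had an unadjusted p under 0.05 in edgeR and 1177 in DESeq2.

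Markers of other cells moved in part with the members. The 5 tested markers of border macrophages, which live beside meningeal fibroblasts, were all below 0 with a median of -0.62, among them Mrc1 (3.79 and 1.84 CPM) and Cd163 (2.08 and 0.946 CPM). Summed over the 9 markers of the list they were at 5.63 to 11.2 CPM in Trim28-KO and 12.4 to 15.2 CPM in control. All 10 endothelial markers were below 0 (median -0.30), with sums of 198 to 243 and 250 to 299 CPM, and the 10 mural markers had a median of -0.21 with sums of 179 to 222 and 213 to 270 CPM. The medians were 0.0046 for 8 microglia and 0.037 for 8 astrocyte markers, and all 7 oligodendrocyte markers were below 0 (median -0.26). In these 6 lists 0 genes were called by edgeR or DESeq2. At an unadjusted p under 0.05 in edgeR were 3 border macrophage, 3 endothelial, 3 mural, 0 microglia, 2 astrocyte and 4 oligodendrocyte markers. The same held for 1488 of all 16271 genes tested. The choroid plexus markers summed to 1.42, 4.08 and 8.95 CPM in Trim28-KO and 15.1, 4.57 and 2.62 CPM in control, without order by group. The part that the amount of meninges on each dissected piece had in the members' levels was not tested in the bulk tissue.

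**Figure D2:**
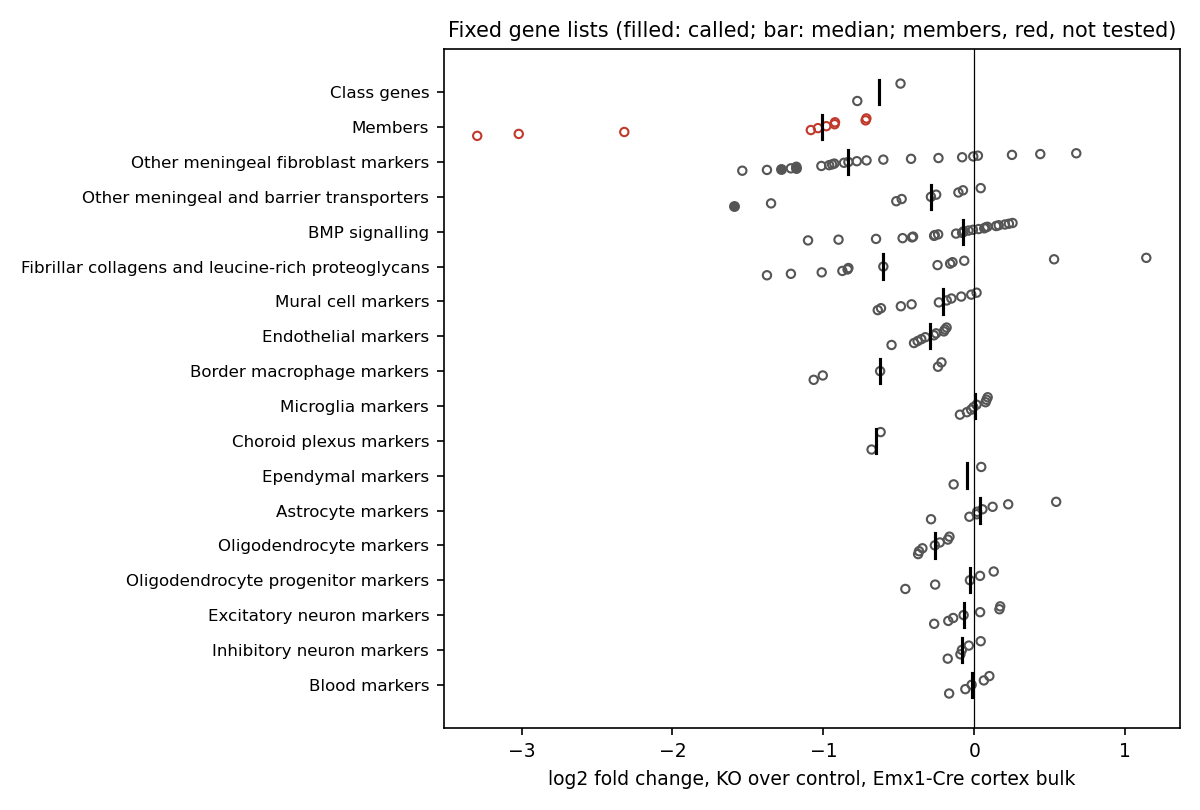
Log2 fold change (Trim28-KO over control, Emx1-Cre cortex bulk) of each tested gene of 18 fixed lists, with a bar at the list median and filled points for genes called by edgeR. The members (red, selected on this contrast) have a median of -1.01 and the other meningeal fibroblast markers one of -0.83, while microglia and astrocyte markers lie around 0.

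By likeness, measured as Pearson's r over the 6 bulk libraries between log2(CPM + 0.5) of a gene and the mean of the members' standardised values, the 8 genes outside the members nearest to them were Gpr149 (0.997), Plxdc1 (0.996), Islr (0.995), Kcnip2 (0.994), Cabp1 (0.994), Rspo1 (0.993), Tpm2 (0.993) and Fbxo34 (0.991). The 6 libraries share the split into groups, so a high r describes that split and the order inside it. Plxdc1, Islr and Rspo1 were called lower, and Islr was also on the fixed list. Kcnip2 and Cabp1, at 65.9 to 72.5 and 36.2 to 44.0 CPM in Trim28-KO, are abundant neuronal genes, so the nearest genes were not all meningeal.

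The nuclei libraries held 14296 barcodes, of which 13671 were kept, those whose number of detected genes lay no more than 3 median absolute deviations from the median of the animal, and 36 barcodes occurred in more than 1 library. Nuclei with at least 1 UMI of each of Bnc2, Cped1 and Eya2 were taken as the meningeal class, and there were 65 of them (0.475%). In the class of each animal 17 to 22 of the 25 other meningeal markers were found, at 2954 to 4563 CPM (of UMIs, not TMM-normalised, here and for the class below), against 214 to 227 in the other nuclei. The defining markers of border macrophages and of ependyma were at 0 UMIs in the class of all 4 animals, mural markers were at 58.5 to 168 CPM, and endothelial markers at 155 to 210 CPM against 7.89 to 13.8 in the other nuclei. Astrocyte markers were at 331 to 1341 CPM in the class and 758 to 848.1 elsewhere, led by Slc1a3 (127 of 212 UMIs), while Aqp4 was at 0. Excitatory neuron markers were at 2525 and 1289 CPM in the class of Trim28-KO animals 60 and 73 and at 1551 and 2142 in that of control animals 64 and 65, against 1198 to 1360 CPM in the other nuclei. Of their 625 UMIs in the class 541 were of Foxp2, a forkhead factor gene found in deep-layer neurons. Without Foxp2, a step added after the values were seen, these markers were at 0 to 351 CPM in the class and 1154 to 1286 CPM elsewhere, and Slc17a7 gave 21 UMIs in the class. The part of other cell types in the members' class levels was not tested. Median depth was 3315 to 4354 UMIs per class nucleus and 8088 to 8839 over all nuclei. In bulk Bnc2 was at most at 0.114 CPM in any library. Cped1 was lower in each Trim28-KO library than in each control (2.27 to 2.33 against 2.88 to 3.51 CPM, edgeR adjusted p = 0.36), and Eya2 overlapped (0.455 to 0.672 against 0.622 to 1.09 CPM, adjusted p = 0.549). Over all nuclei the log2 fold changes were -0.40 for Cped1 (edgeR adjusted p = 0.172), 0.23 for Eya2 (adjusted p = 0.779) and -0.11 for Bnc2. Of these 3 genes that define the class 0 were called, and 1 had an unadjusted p under 0.05 in edgeR. Over all nuclei 4311 of the 17400 genes tested had one. Whether the genotype changed which nuclei enter the class through these genes was not tested.

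The members marked the class unevenly. Pooled over the animals, Slc47a1 had 81.7% of all its UMIs in these 65 nuclei and Slc26a7 51.9%, although the class held 0.237% of all UMIs. By animal the share varied. For Slc47a1 it was 85.4% and 32.3% in Trim28-KO animals 60 and 73 and 69.2% and 88.1% in control animals 64 and 65. For Slc26a7 it was 68.8% and 48.5% in Trim28-KO and 16.7% and 55.8% in control, in the same order. The pooled share was 30.4% for Col1a2, 30.2% for Slc6a20a, 24.4% for Foxc1, 23.3% for Slc6a13, 21.3% for Bmp6, 9.63% for Dcn, 3.13% for Lum and 0% for Myoc. Over the 10 members, 1084 of 3041 UMIs (35.6%) fell in the class, and 59.4% in the 132 nuclei with UMIs of at least 2 of the 3 class genes. By animal, the class held 53.1% and 21.6% of member UMIs in Trim28-KO animals 60 and 73. In control animals 64 and 65 it held 12.4% and 49.4%. All 65 class nuclei held a UMI of at least 1 member, and 49 of them UMIs of 3 or more. In the class 61.5% of nuclei held a UMI of Slc47a1 and 67.7% one of Bmp6, against 0.684% and 1.52% of the 5997 nuclei with at least 2 UMIs of the excitatory neuron gene Slc17a7, which were deeper (medians of 11138 to 12606 UMIs). Free RNA and true low expression cannot be told apart at the latter level.

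Some members were also found elsewhere. Slc6a20a was in 29.4% of the 136 nuclei with at least 2 UMIs of the pericyte gene Pdgfrb (161 UMIs), against 0.450% of the Slc17a7 nuclei. Col1a2 was in 8.82%, Slc6a13 and Dcn in 7.35% each, Bmp6 in 6.62% and Foxc1 in 5.15% of the Pdgfrb nuclei, and Pdgfrb is found in both pericytes and fibroblasts. Myoc had 22 UMIs in 14 nuclei, none of the class, and 10 of these UMIs were in 3 of the 182 nuclei with at least 2 UMIs of the astrocyte gene Aqp4. The class held 0 Myoc UMIs. A floor of 3 counts in the class lies at 29.2 and 77.3 CPM in animals 60 and 73. It lies at 126 and 23.0 CPM in animals 64 and 65, and levels below it could not be read. Myoc, the member furthest from control in bulk, also gave 0 UMIs in the nuclei with at least 2 of the 3 class genes. Which cells held the Myoc RNA of the bulk tissue was not tested. The class gene Cped1 was also found outside the class, in 41.9% of the Pdgfrb nuclei and 25.8% of the Aqp4 nuclei. Bnc2 and Eya2 were in 0.735% and 4.41% of the Pdgfrb nuclei and each in 2.30% of the Slc17a7 nuclei.

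The number of class nuclei did not separate the groups. Trim28-KO animal 60 had 24 of 3609 nuclei in the class (0.665%, exact binomial 95% interval 0.427 to 0.988) and animal 73 had 11 of 3590 (0.306%, 0.153 to 0.548). Control animal 64 had 7 of 3407 (0.205%, 0.0826 to 0.423) and animal 65 had 23 of 3065 (0.750%, 0.476 to 1.12). Each group thus had 1 animal near 0.7% and 1 at or below 0.306%, and the difference in means was 0.00777 percentage points (0.486% ± 0.254 and 0.478% ± 0.385, SD, n = 2). An exact two-sided permutation test over the animals gave p = 1, where 0.33 is the smallest it can give. The difference without 1 animal ran from -0.265 (without control 64) to 0.280 percentage points (without control 65). With UMIs of any 2 of the 3 class genes the animals had 39 and 32 nuclei in Trim28-KO and 24 and 37 in control, a difference of 0.0302 percentage points. Counted by the members themselves, a rule added after the data were seen, 33 and 29 nuclei in Trim28-KO and 22 and 30 in control held UMIs of 3 or more members (0.0488 percentage points). Whether the tissue used for bulk RNA carried as much meninges was not tested.

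**Figure D3:**
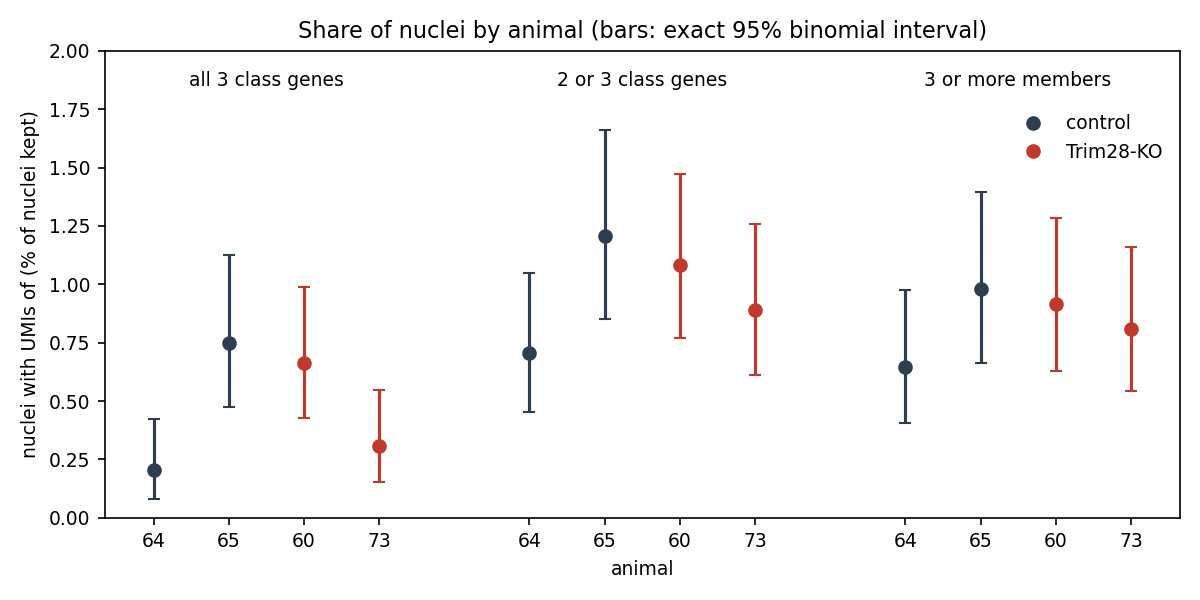
Share of nuclei (% of nuclei kept) with UMIs of all 3 class genes, of at least 2 of them, or of 3 or more members, by animal (dark, control; red, Trim28-KO), with exact 95% binomial intervals for counting error. Under each definition the 2 red points lie between the 2 dark ones.

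The level inside the class nuclei was not called different for any member. Summed per animal, 6 members passed the filter there, and 0 of them were called by edgeR or DESeq2 or had an unadjusted p under 0.05 in either. Over all genes the share called by edgeR was 0% of the 1572 genes tested (27 had an unadjusted p under 0.05, and DESeq2 called 0, with 4 at p under 0.05). Slc47a1 was at 1716 and 258 CPM in Trim28-KO animals 60 and 73 and at 1509 and 1482 in control animals 64 and 65. Animal 60 was thus at the level of the controls and animal 73 far below (10 UMIs, exact Poisson interval 124 to 474 CPM), and the log2 fold change was -0.56 with a 95% interval from -2.45 to 1.32. Without animal 73 it was 0.29. Slc26a7 was at 429 and 412 CPM in Trim28-KO and at 252 and 330 in control (log2 fold change 0.46, -0.69 to 1.62), and Bmp6 at 546 and 1083 against 461 and 399 (0.87, -0.39 to 2.14). For both, the Trim28-KO animals were above the controls, and the intervals include 0. The share of all genes with such a separation of 2 against 2 animals was not counted. Col1a2 (146 and 232 against 41.9 and 230 CPM, log2 fold change 0.027) and Slc6a13 (185 and 103 against 83.8 and 169, 0.068) overlapped between groups. Slc6a20a was at 682 and 1727 against 838 and 706 CPM (0.59, -0.78 to 1.97), high in animal 73 alone.

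Foxc1 and Dcn were below the filter in the class. Foxc1 gave 7 and 9 UMIs in Trim28-KO and 2 and 11 in control, and Dcn 7 and 3 against 2 and 6. Lum gave 1 UMI in the class over all animals. With 7 to 24 nuclei per animal, intervals around these levels are wide, and they cover counting error only.

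**Figure D4:**
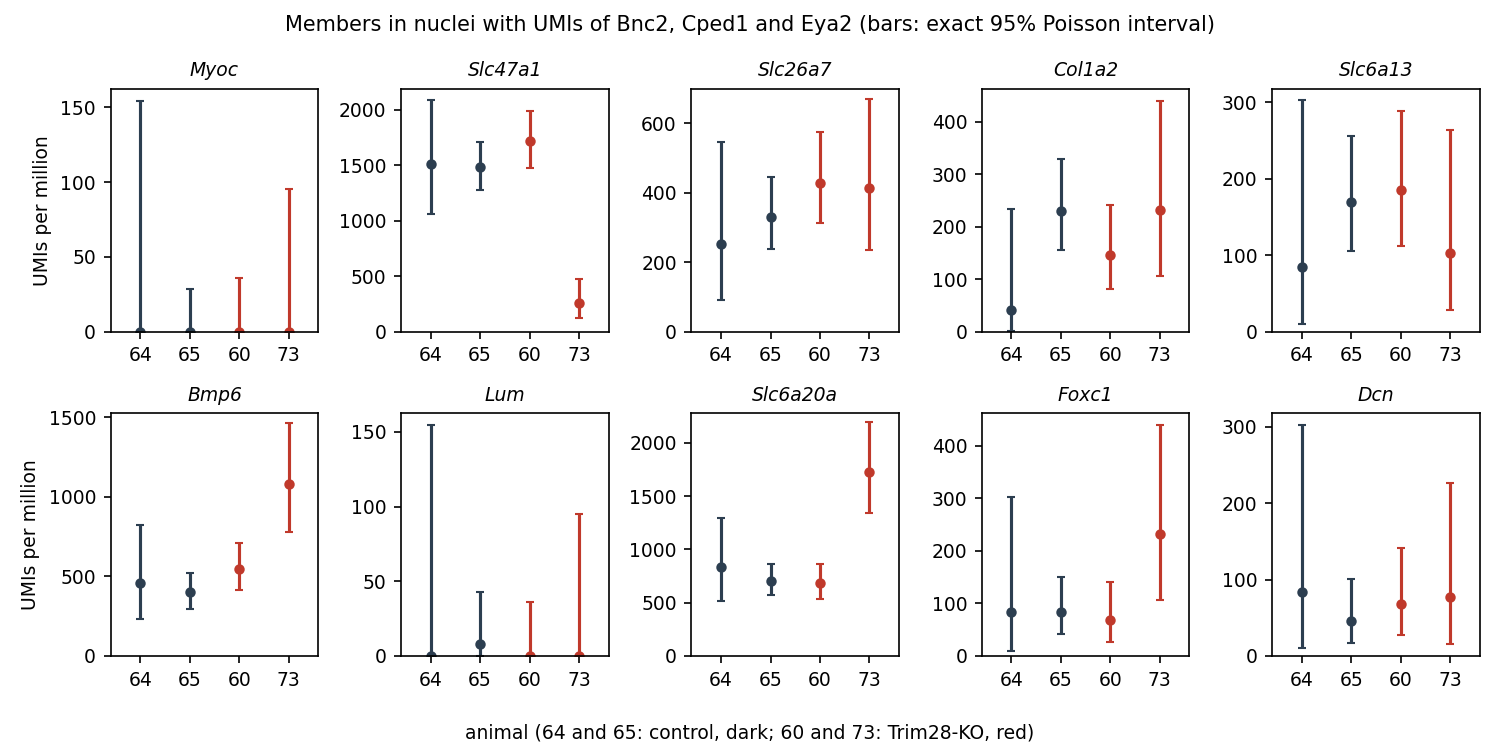
CPM of UMIs of each member, summed over the nuclei with UMIs of Bnc2, Cped1 and Eya2 of each animal (dark, control; red, Trim28-KO), with exact 95% Poisson intervals for counting error. For Slc47a1 animal 60 lies with both controls, at 1482 to 1716, and animal 73 at 258, whereas Bmp6 is highest in animal 73.

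Summed over all nuclei, which joins number and level, the members also were not called. Of the 8 members that passed the filter 0 were called by edgeR at an adjusted p under 0.05, where 4.16% of 17400 genes were. DESeq2 also called 0 of them, and 0 had an unadjusted p under 0.05 by either tool. Of all 17400 genes tested, 4311 had one in edgeR and 3494 in DESeq2. Slc47a1 gave 206 and 31 UMIs in Trim28-KO animals 60 and 73 and 52 and 219 in control animals 64 and 65, so each group had 1 high and 1 low animal (log2 fold change -0.40, 95% interval -2.38 to 1.58). Its value rested on single animals: it was -2.33 without animal 60, 0.40 without animal 73 and 1.05 without animal 65. Slc26a7 gave 64 and 33 against 36 and 77 UMIs (-0.42, -1.50 to 0.67). Bmp6 gave 149 and 204 against 164 and 239 UMIs (-0.38, -1.0 to 0.24), and Col1a2 34 and 46 against 32 and 69 (-0.53, -1.52 to 0.46). Without animal 64 Col1a2 was at -1.01 and without animal 65 at 0.19, each with a lone control assumed to vary like the others. Slc6a20a gave 152 and 251 against 235 and 186 UMIs (-0.24, -0.84 to 0.36) and Dcn 42 and 56 against 53 and 36 (-0.039, -0.75 to 0.67). For Foxc1, at 30 and 43 against 22 and 24 UMIs (0.48, -0.30 to 1.26), and Slc6a13, at 55 and 63 against 37 and 47 (0.30, -0.36 to 0.96), both Trim28-KO animals were above both controls. Myoc was the one member with both Trim28-KO animals below both controls, at 2 and 3 against 9 and 8 UMIs, and Lum gave 8 and 11 against 7 and 6. Myoc and Lum were below the filter. How many of all genes separate 2 animals from 2 in this way was not counted, so nothing is read from these separations.

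The difference of each member over all nuclei was split by where the UMIs lay. For Slc47a1 the difference of the means, Trim28-KO minus control, was -1.04 CPM, with -1.10 from the class and 0.056 from all other nuclei. The class gave 5.35 and 0.302 CPM in Trim28-KO animals 60 and 73. It gave 1.21 and 6.64 CPM in control animals 64 and 65, so each group had 1 high and 1 low animal. For Bmp6 the difference was -1.53, with 0.40 from the class and -1.94 from other nuclei, and for Slc6a20a it was -1.06, with 0.15 and -1.22. For Slc26a7 it was -0.46, with 0.069 from the class and -0.53 from other nuclei, and for Col1a2 it was -0.52, with -0.17 and -0.35. Foxc1 (0.32, of which 0.30 from other nuclei), Slc6a13 (0.35, with 0.42 from other nuclei and -0.063 from the class) and Lum (0.066) were higher in Trim28-KO by this measure. Myoc (-0.21) and Dcn (-0.029) lay below 0, for Myoc with its whole difference outside the class. Slc26a7 in the nuclei outside the class was the lowest member there (log2 fold change -0.97, 95% interval -1.74 to -0.20), with an unadjusted p of 0.0198 and an adjusted p of 0.127 from edgeR. Among those other nuclei 0 of the 8 members tested were called by edgeR or DESeq2, where 4.81% of 17366 genes were by edgeR. Slc26a7 was the 1 member with an unadjusted p under 0.05 in edgeR, and 0 had one in DESeq2. Of all 17366 genes tested, 4318 had one in edgeR and 3485 in DESeq2, so nothing is read from that of Slc26a7.

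Side by side in the same 4 animals, bulk and nuclei gave different values. In bulk, with animals 76 and 77 left out, the log2 fold changes were -3.41 for Slc47a1, -3.24 for Myoc, -3.09 for Slc26a7, -1.30 for Col1a2, -1.20 for Slc6a13, -1.09 for Bmp6, -0.98 for Slc6a20a, -0.96 for Lum, -0.67 for Dcn and -0.64 for Foxc1. For 6 of the 8 members with a fit over all nuclei, all but Col1a2 and Dcn, the bulk value was below the 95% interval of the nuclei value. The share of all genes for which this held was not counted, and the members were selected for low bulk values. Nothing is therefore read from the 6. The members' median was -1.14 over all 10 in bulk, -0.31 over the 8 fitted over all nuclei and 0.27 over the 6 fitted in the class. These medians rest on different sets, with Myoc and Lum in that of bulk alone. Medians over all genes tested were within 0.01 of 0 in each. The gap itself was not tested, because the bulk contrast had selected the members. Bulk RNA holds cytoplasmic and nuclear RNA, and the nuclei were prepared apart from it.

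**Figure D5:**
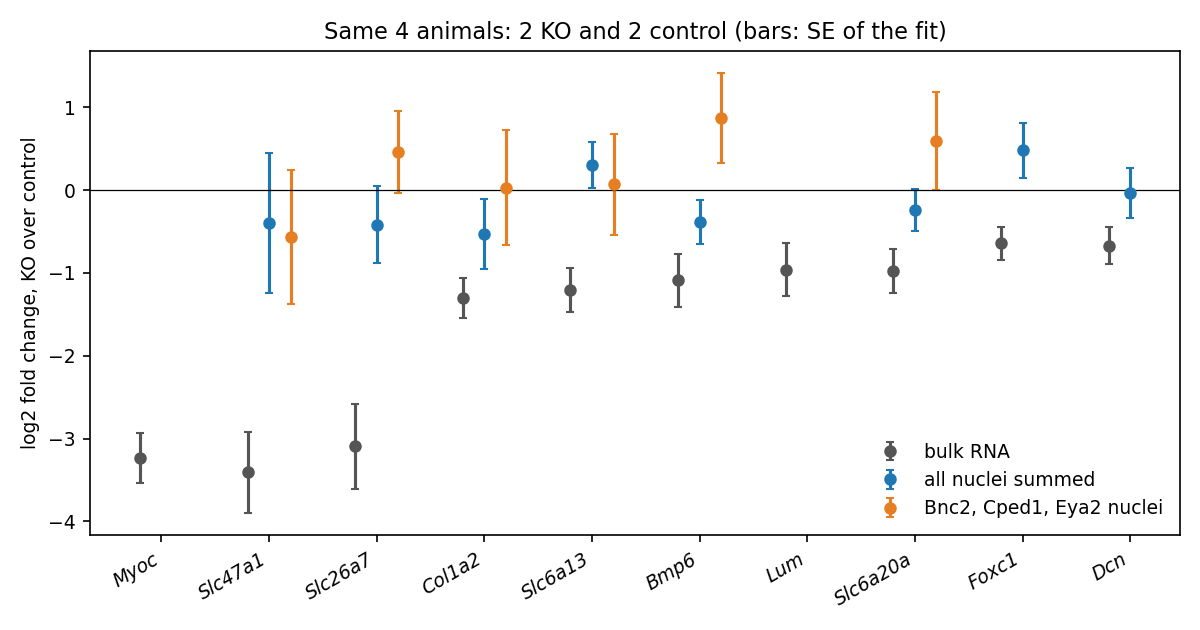
Log2 fold change (Trim28-KO over control) of each member in animals 60, 73, 64 and 65, in bulk RNA (grey), over all nuclei summed (blue) and in the nuclei with UMIs of Bnc2, Cped1 and Eya2 (orange), with bars of 1 SE. All grey points lie between -3.41 and -0.64, and the blue and orange points between -0.56 and 0.87.

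Markers of other cell types were called over all nuclei. Of 7 oligodendrocyte markers 5 were called lower over all nuclei in Trim28-KO (median log2 fold change -1.25), and 1 of 8 microglia markers, Siglech (-1.09, edgeR adjusted p = 0.0271), was called lower too (list median -0.57). Of 7 excitatory neuron markers Neurod6 was called higher (0.91, adjusted p = 0.0195), and of 25 BMP signalling genes the receptor gene Bmpr1b was called lower (-0.60, adjusted p = 0.0384). These 3 genes were named after their values were seen. Other meningeal markers (0 of 23 called, median -0.21), border macrophage markers (0 of 4, -0.20) and other transporters (0 of 12, -0.17) were near the members' median of -0.31. An unadjusted p under 0.05 in edgeR was given to 3, 1 and 2 of these, and DESeq2 called 1, 0 and 0. Of all 17400 genes tested over all nuclei, 4311 had such a p in edgeR, and DESeq2 called 1540. For the oligodendrocyte list the nuclei median (-1.25) was further from 0 than the bulk median (-0.26), the reverse of the members.

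The members were also read in the other bulk experiments, of sorted cells in culture and of sorted nuclei. The NPCs were dividing forebrain cells from embryos of Rosa26-Cas9 mice. They were transduced with guides against Trim28 (6 cultures) or lacZ (2 cultures) and sorted after 10 days. In them 3 members passed the filter and 0 were called by edgeR (0.194% of 16469 genes were) or DESeq2. Of these 3 members 0 had an unadjusted p under 0.05 in either tool. Of all genes tested, 752 had one in edgeR and 827 in DESeq2. Foxc1 was at 10.6 to 23.5 CPM in Trim28-KO and at 12 and 17.6 CPM in control (log2 fold change 0.21, 95% interval -0.56 to 0.98, unadjusted p = 0.555, edgeR), higher than in the cortex. Bmp6 was at 0.230 to 0.961 CPM against 0.376 and 0.547 CPM, and Slc26a7 at 0 to 1.39 CPM against 0.0995 and 0.376 CPM. Trim28 was lower in these cultures (-1.82, adjusted p = 0.031).

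In the Trim28-flox animals, adults given AAV-Cre in the forebrain 2 months before nuclei were sorted, Trim28 went against the labels, at 131 to 146 CPM in the 4 libraries labelled KO and 25.6 to 31.6 CPM in the 4 labelled control. Of the 4 members that passed the filter 0 were called by edgeR (0.0409% of 17102 genes were) or DESeq2, and 1, Bmp6, had an unadjusted p under 0.05 in each. Of all 17102 genes tested, 810 had one in edgeR and 910 in DESeq2. Bmp6 was at 2.6 to 4.50 CPM in the libraries labelled KO and at 4.26 to 7.03 CPM in those labelled control (log2 fold change -0.57, 95% interval -1.11 to -0.030, edgeR adjusted p = 0.971), so by Trim28 itself the lower Bmp6 stood beside the higher Trim28. Col1a2, Foxc1, Slc47a1, Slc6a13 and Lum stayed at or below 0.445 CPM in all 8 libraries.

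Sorted neuronal nuclei of the Cas9-GFP and Stop-Cas9-GFP animals, with 4 Trim28-KO and 1 lacZ library each, allow levels with no test. Bmp6 was the most abundant member there, at 4.24 to 12.5 CPM in Cas9-GFP Trim28-KO against 9.02 in control, and at 3.39 to 7.44 against 7.65 CPM in Stop-Cas9-GFP. Foxc1 was at 0 in all 10 libraries, and Col1a2 at or below 0.372 CPM. Slc6a20a was found in all 10 libraries, at 0.460 to 1.69 CPM. Slc26a7 was at 0 in the Cas9-GFP control and at 0.447 to 2.62 CPM in the other 9 libraries.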

How the data were processed

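RNA-seq libraries of bulk tissue and of single nuclei from mouse cortex, cultured NPCs and sorted nuclei were analysed from the deposited tables. The authors aligned bulk reads to GRCm38.p6 with STAR (2.6.0) and deposited counts per gene from featureCounts (Subread 1.6.3). The gene and TE counts of the Cas9-GFP and Stop-Cas9-GFP animals were deposited as estimated counts of TEtranscripts, rounded, and 1153 rows of TE subfamilies were left out here. For nuclei the authors deposited UMI counts from Cell Ranger (3.0). Columns that match no sample were not used.

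Counts were tested per experiment in R 4.3.3 with edgeR 4.0.16 (filterByExpr with a minimum count of 10 and total of 15, TMM, quasi-likelihood test, Benjamini-Hochberg over all genes tested) and with DESeq2 1.42.0 as an alternative. In nuclei, UMIs were summed per animal and called at an adjusted p under 0.05. Samples of a group are separate animals or cultures. No doublet caller was run. Binomial and Poisson intervals and floors cover counting error only, whereas intervals of log2 fold changes rest on the spread between samples, and floors are 3 counts. NPC numbers fall into a pair of series, each with 1 control and every guide, and a blocked model of both series was an alternative. Bulk totals outside the Emx1-Cre cortex ran from 9996885 to 19922767 counts in NPCs, 17256362 to 24212358 in the Trim28-flox animals and 9147438 to 13595653 in the Cas9-GFP and Stop-Cas9-GFP animals. The edgeR steps were tested on simulated data.

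The members and the gene lists were chosen with earlier results of these data known. Named genes were the members, Trim28, the class genes, list genes called in the cortex, up to 4 of the most abundant per list, and the 8 genes most like the members.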

Additional observations from a re-analysis of the deposited data

Results flagged for a closer look

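Slc47a1 in the Stop-Cas9-GFP Trim28-KO library of guide 3 was at 1.11 CPM (13 counts), against 0 in the other 3 Trim28-KO libraries and in the control, a sample far from the others of its group. Chance alone marks about 1 in 20 groups in this way, and 19 groups were tested.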

How the results depend on the processing

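Members kept their direction in the bulk cortex under every alternative tried, which were RLE size factors, DESeq2, no filter on low counts, TEtranscripts gene counts, only the 4 animals with nuclei, and each library left out. Over all nuclei Bmp6, Foxc1 and Slc6a13 kept their direction without any 1 animal, as did Bmp6 and Slc26a7 in the class, and the other members fitted there turned without at least 1 animal. Without the filter on low counts, 546 genes were called in the bulk cortex (216 with it), 19 in the Trim28-flox animals (7 with it), 90 over all nuclei (724), 96 over the other nuclei (836) and 1 in the class (0). DESeq2 called 150 genes in NPCs (32 by edgeR), 37 in the Trim28-flox animals, 1540 over all nuclei and 1524 over the other nuclei. Same-numbered series of NPC cultures were also paired by a replicate block, which called 136 genes and no member. A class set by 3 other meningeal markers, which took in 7.10% to 7.65% of the nuclei of an animal, called 257 genes. The difference in class share was -0.133 percentage points with 3 UMIs over the class genes together, -0.00957 without the filter on detected genes and -0.0332 with nuclei thinned to 1000 UMIs. In class nuclei, Col1a2 turned from 0.027 to -0.031 with 2 of the 3 class genes and to -0.24 with other markers, and Slc6a20a from 0.59 to -0.061 and -0.078. The cause was not tested.

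With each library left out in turn, calls ranged from 104 to 344 in the bulk cortex, 2 to 58 in NPCs, 5 to 8 in the Trim28-flox animals, 371 to 5233 over all nuclei, 0 to 9 in the class and 0 to 2209 over the other nuclei, and the share difference from -0.265 to 0.280 percentage points. Log2 fold changes over all nuclei ranged from -2.33 to 1.05 for Slc47a1, -0.97 to 0.30 for Slc26a7, -1.01 to 0.19 for Col1a2, -0.65 to 0.078 for Slc6a20a and -0.26 to 0.22 for Dcn. In the class they ranged from -2.67 to 0.29 for Slc47a1, -0.37 to -0.13 for Col1a2, -0.14 to 0.45 for Slc6a13 and -0.075 to 1.03 for Slc6a20a. Col1a2 and Slc6a13 could be fitted in the class without animal 64 or 73 only. A lone animal left in a group is assumed to vary like the others. With 65 class nuclei, depth limits what can be read for Myoc, Lum, Dcn and Foxc1.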
